A study of Homo sapiens with 10 samples.

Results

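The 10 genes FOS, FOSB, FOSL1, EGR1, JUN, JUNB, JUND, IER2, DUSP1 and ZFP36 belong to the immediate early response, the set of genes a cell transcribes within minutes of a stimulus. They are taken here by name, as a marker of the state of the cells in culture and at harvest. All 10 are among the 20535 gene symbols with a deposited value, and 9 are among the 10127 tested genes, those whose level in TPM, a share of transcripts, averages 1 or more across the 10 libraries. FOSB fell below that level.

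The study edited HS2, an enhancer of the β-globin locus control region, in the human erythroleukemia line K562 by dCas9 repressors induced with doxycycline, and sorted the cells that carried single guide RNAs by their zsGreen1 fluorescence. RNA-seq covers 5 groups of 2 libraries. By their labels the control libraries carry the nontargeting guide sgGal4, and these labels do not name the repressor they carried. The paper's legend for its RNA-seq instead names nontransduced cells as the reference, so the handling of the control cells is not settled. The other 8 libraries received sgHS2, a mix of 4 guides to HS2, with dCas9-KRAB (K), dCas9-LSD1 (L), dCas9-LSD1 with MCP-KRAB (LK, the label enCRISPRi-LK) or dCas9-KRAB with MCP-LSD1 (KL, the label enCRISPRi-KL). The study's legend counts the 2 libraries of a group as experiments, and the labels do not say whether these were separate cultures, so each p-value below is set against a spread that may be technical.

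Immediate early genes need no new protein for their induction. Serum and growth factors act through the kinase ERK on ternary complex factors, which sit with the serum response factor SRF on CArG boxes in promoters such as those of FOS and EGR1. FOS and JUN proteins pair as the transcription factor AP-1, EGR1 is a zinc finger factor, the phosphatase DUSP1 and the RNA-binding protein ZFP36 close the response again, and handling, fresh medium or dissociation of cells can set it off.

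The effector genes were read first, because a fusion transcript can add to the level of the gene it was built from. How far each construct here does so was not tested. KDM1A, which encodes LSD1, was at 105 and 84.2 TPM in the libraries labelled L and between 25.2 and 33.5 TPM in the other 8. ZNF10, the source of the KRAB domain, was at 128 and 136 TPM in L, 36.8 and 31.5 TPM in LK and 365 and 360 TPM in KL, against 1.18 and 3.80 TPM in K and 0.97 and 1.89 TPM in sgGal4. These levels do not follow every label: ZNF10 is raised in L and not in K, and KDM1A is not raised in LK or KL. The groups are therefore named by their labels only, and comparisons with sgGal4 are given by group, over all 8 sgHS2 libraries, or both. In the paper's ChIP-seq, under the same labels, K raised the repressive mark H3K9me3 at HS2. There L left that mark unchanged and lowered the enhancer marks H3K4me1 and H3K4me2.

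The embryonic globin gene HBE1, which HS2 serves, was lower than in sgGal4 in every sgHS2 group, with log2 changes of -1.04 in K, -0.57 in L, -1.56 in LK and -2.00 in KL (adjusted p = 0.00296, 0.0567, 2.55e-05 and 1.49e-06). The HBE1 call in K held in 9 of 10 alternatives (adjusted p up to 0.111). Of 13 erythroid markers 12 were tested, and 2 were higher (HBZ, KLF1) and 2 lower (HBE1, HBG2) over all sgHS2 libraries, where 3.26% of all genes were called. The call of HBZ held in only 6 of 13 alternatives (adjusted p up to 0.43) and ended without sgGal4 replicate 1 (0.0896), sgGal4 replicate 2 (0.131), LK replicate 2 (0.0568) or KL replicate 2 (0.0562), that of KLF1 ended without sgGal4 replicate 1 (0.112), and that of HBG2 without a trend (0.0666). By group HBZ was called higher in L and KL only, and it was called lower in LK than in either. Over the alternatives other than leaving out a library, the call of HBZ as higher held in 9 of 10 in L and 3 of 10 in KL. HBG2 was called lower by group only in LK (-1.02) and KL (-1.815), and KLF1 higher only in K (0.95) and L (1.17). Over the same alternatives the KLF1 call held in 5 of 10 in K and 8 of 10 in L. The erythroid markers summed to between 2190 and 5022 TPM, with HBZ the most abundant at a mean of 1403 TPM. GATA1 was listed at 0 in all 10 libraries. A 0 in these files does not show absence, since GATA1 is a gene K562 cells express. Markers of other cells had a sum between 1.20 and 8.51 TPM for 7 megakaryocyte genes (THBS1 the highest at a mean of 2.86 TPM, GP9 and PF4 listed at 0) and between 0.79 and 7.94 TPM for 4 monocyte genes (LYZ at 3.20 TPM, CSF1R listed at 0). The 4 T cell genes summed to 27.3 and 34.9 TPM in sgGal4 and 2.33 to 28.8 TPM in the sgHS2 libraries, with CD3E and CD2 listed at 0, and CD3D, the most abundant at a mean of 13.3 TPM, was at 26.1 and 33.6 TPM in sgGal4 against 1.65 to 21.3 TPM (log2 change -1.89, adjusted p = 0.0792). CD3G, the other T cell gene tested, was at 1.22 and 1.24 TPM in sgGal4, inside the 0 to 7.47 TPM of the sgHS2 libraries. The 5 packaging cell or fibroblast genes summed to between 454 and 872 TPM, mostly from VIM at a mean of 518 TPM and KRT18 at 120.3 TPM, with COL3A1 listed at 0. Of the 4 tested, 0 were called against sgGal4. VIM was called higher in LK than in L and in KL, where 0.118% and 0.385% of all genes were called. The part of these marker levels in the results below was not tested.

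On chromosome 19 lie 5 of the 10 immediate early genes (FOSB, JUNB, JUND, IER2 and ZFP36), and 4 have only 1 exon in their longest coding transcript. Their transcripts are rich in G and C, from 52.8% to 69.9% against a median of 47.8% over the tested genes. JUND, with 69.9%, exceeds 99.7% of the tested genes. In the RefSeq promoter table (GRCh38.p14) 9 of the 10 symbols matched. The 250 bases before the start of EGR1 (chr5:138465229-138465478, plus strand) and of JUND (chr19:18281623-18281872, minus strand) are shown, because these are the only members called in any comparison below. Capitals mark 2 CArG boxes in EGR1, at -105 to -96 and -83 to -74 from the start, and TGACGTCA, the cAMP response element, in JUND at -200 to -193.
EGR1: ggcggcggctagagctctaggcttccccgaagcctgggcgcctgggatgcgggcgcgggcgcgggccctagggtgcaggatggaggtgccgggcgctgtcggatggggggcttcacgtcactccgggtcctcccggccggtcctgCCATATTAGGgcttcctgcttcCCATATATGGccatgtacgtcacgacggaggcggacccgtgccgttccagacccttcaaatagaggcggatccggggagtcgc
JUND: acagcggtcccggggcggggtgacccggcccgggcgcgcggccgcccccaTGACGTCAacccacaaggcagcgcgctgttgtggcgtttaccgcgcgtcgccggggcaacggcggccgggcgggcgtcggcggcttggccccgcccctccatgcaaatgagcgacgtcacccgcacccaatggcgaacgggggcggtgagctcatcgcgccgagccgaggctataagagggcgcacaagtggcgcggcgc

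Searched on both strands, a CArG box is in 1.16% and TGACGTCA in 1.65% of the 35116 promoters of that length in the table. EGR1 also holds GCGNGGGCG, the letters an EGR zinc finger reads, at -198 to -190, found in 8.41% of all promoters. The DUSP1 promoter holds TGACGTCA as JUND does, at -125 to -118. A match describes the letters only, since no binding was measured in these libraries.

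**Figure D1:**
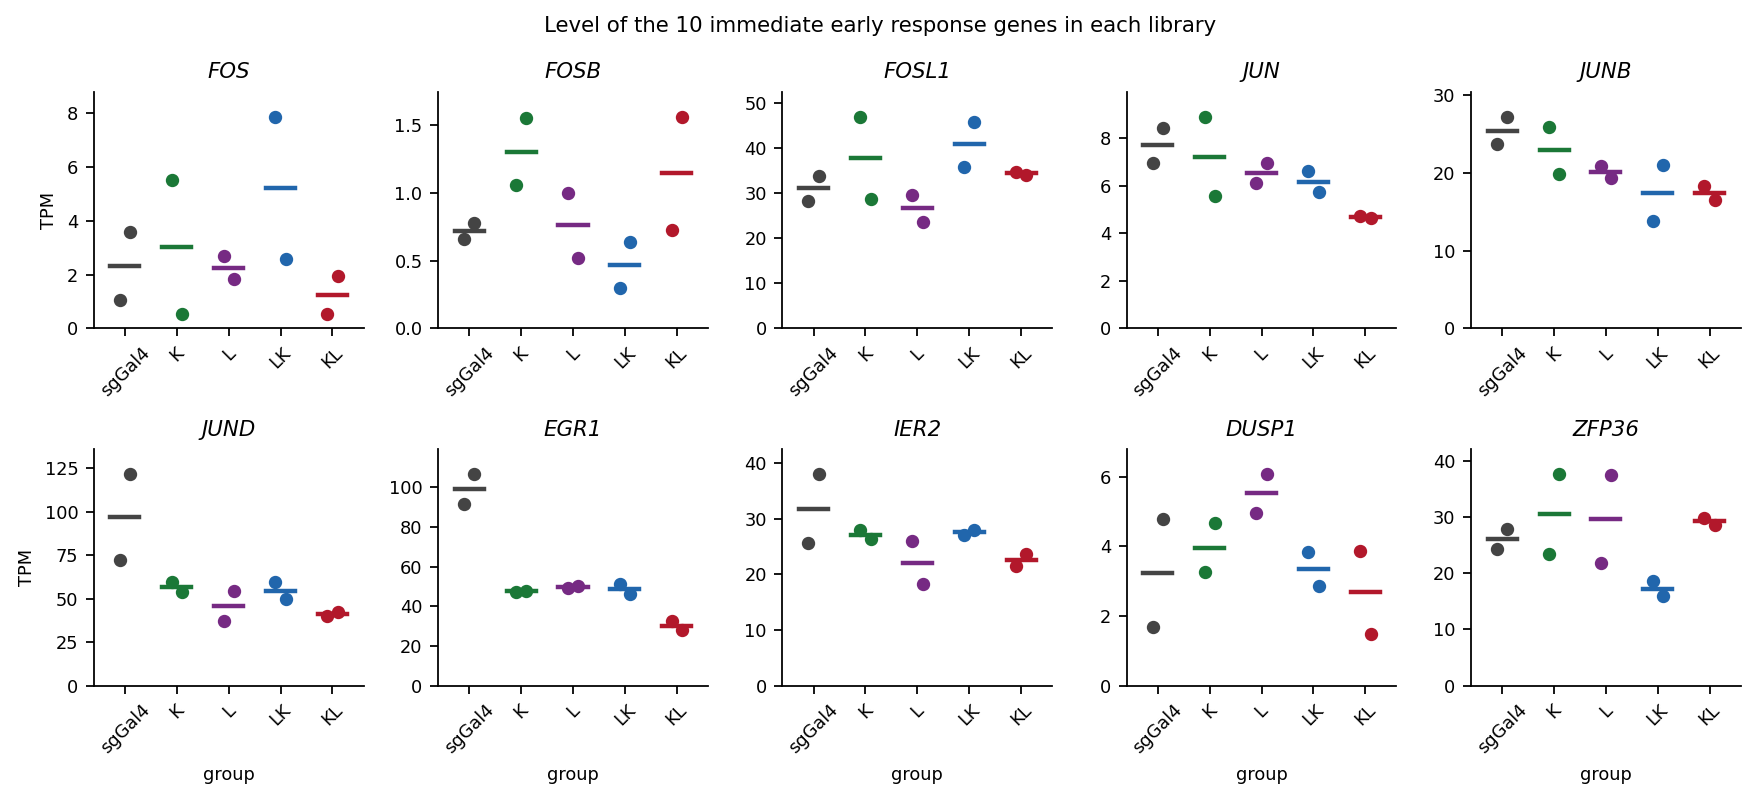
TPM of each of the 10 immediate early genes in every library, by group (1 point a library, bar the mean of 2 libraries, each axis from 0). EGR1 is at 91.6 and 106 TPM in the 2 sgGal4 libraries and at most 51.2 TPM in the 8 sgHS2 libraries, while FOS ranges from 0.52 to 7.84 TPM with no group apart.

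The FOS family supplies the partners of JUN in AP-1 that cannot pair with themselves. FOS, the member most often read as a sign of recent stimulation, was at 1.04 and 3.57 TPM in sgGal4, 5.50 and 0.54 TPM in K, 2.69 and 1.82 TPM in L, 7.84 and 2.57 TPM in LK and 0.52 and 1.95 TPM in KL. The highest value, in LK replicate 1, is 15.1-fold the lowest, in KL replicate 1, and all 5 groups overlap with at least 1 other group. Replicates of 1 group differed 3.43-fold in sgGal4, 10.2-fold in K, 1.48-fold in L, 3.05-fold in LK and 3.75-fold in KL. On log2(TPM + 1), which understates changes of genes at this level, the differences from sgGal4 were 0.05 in K, 0.08 in L, 0.88 in LK (95% interval -0.56 to 2.32) and -0.53 in KL, and none was called. The sign in K depends on the scale, since the change was -0.11 with a pseudocount of 0.1, -0.03 without the mitochondrial genes and -0.05 after correction for GC content and length. With intervals this wide a difference between groups in FOS was not detectable with 2 libraries a group.

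FOSB, the closest relative of FOS, stayed between 0.30 and 1.56 TPM with a mean of 0.88 TPM and was not tested. FOSL1, which encodes FRA-1, an AP-1 subunit that lasts longer after stimulation, was the most abundant of the family at 23.7 to 46.9 TPM. Its levels in sgGal4, 28.4 and 33.8 TPM, lie inside the range of the sgHS2 libraries. Over all 8 sgHS2 libraries FOSL1 changed by 0.14. By group it changed by 0.24 in K, -0.22 in L, 0.38 in LK and 0.15 in KL (standard error, SE, 0.262 in each group), with no call. The sign was not fixed: with correction for GC content and length the change was -0.01 in KL and -0.01 over all sgHS2 libraries.

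The JUN family provides the AP-1 subunits that pair with FOS or with each other. JUND, the subunit found in resting cells, was at 72.1 and 122 TPM in sgGal4, 59.5 and 53.9 TPM in K, 37.2 and 54.6 TPM in L, 59.7 and 49.8 TPM in LK and 40.1 and 42.1 TPM in KL. Both sgGal4 libraries stand above all 8 sgHS2 libraries, the lower of them 1.21-fold above the highest sgHS2 library. The sgGal4 libraries themselves differ 1.69-fold, at a mean of 96.9 ± 35.0 TPM (SD, n = 2), against 56.7 ± 4.01 TPM in K, 45.9 ± 12.3 TPM in L, 54.7 ± 7.04 TPM in LK and 41.1 ± 1.40 TPM in KL. Since bulk RNA was measured, fewer cells with the transcript and less of it per cell cannot be told apart.

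Over all sgHS2 libraries JUND changed by -0.92 on the log2 scale (95% interval -1.36 to -0.49, limma adjusted p = 0.0246). By group the changes were -0.72 in K, -1.04 in L, -0.77 in LK and -1.17 in KL (SE 0.256), with adjusted p of 0.185, 0.0805, 0.166 and 0.0367, so that only KL passed 0.05. The call over all sgHS2 libraries ended without sgGal4 replicate 2 (log2 change -0.55, adjusted p = 0.261) or LK replicate 2 (0.0528), with no filter (0.0951) and without a trend (0.131). The call in KL ended without sgGal4 replicate 2 (log2 change -0.80, adjusted p = 0.178), KL replicate 1 (0.156), KL replicate 2 (0.177), K replicate 1 (0.0572), K replicate 2 (0.0573), LK replicate 1 (0.0565) or LK replicate 2 (0.0554), with no filter (0.124), without a trend (0.153) and with only the groups compared (0.103). Correction for GC content and length, which bears on a transcript as rich in G and C as this one, gave JUND calls in all 4 groups, with adjusted p of 0.0294 in K, 0.00947 in L, 0.0275 in LK and 0.00348 in KL, the lowest of 10 alternatives that reached 0.339, 0.250, 0.341 and 0.153 without a trend.

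JUN and JUNB were lower in the mean of every sgHS2 group, and the 95% interval of the log2 change included 0 in each. JUN ran from 4.64 to 8.90 TPM, with its lowest values in the 2 KL libraries (4.73 and 4.64 TPM against 6.98 and 8.45 TPM in sgGal4). Its changes were -0.11 in K, -0.21 in L, -0.28 in LK and -0.61 in KL (SE 0.35 in each group), and -0.30 over all sgHS2 libraries. JUNB, a JUN relative that can also hold AP-1 activity down, ran from 13.8 to 27.2 TPM with changes of -0.16, -0.32, -0.55 and -0.52 in the same order. Neither gene was called, and the 23.7 and 27.2 TPM of JUNB in sgGal4 overlap with the 25.9 TPM of K replicate 1. In K the sign of both genes turned without K replicate 2, to 0.19 for JUN and 0.03 for JUNB, and that of JUN also without sgGal4 replicate 2, to 0.02.

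EGR1 encodes the zinc finger factor of the response, and it has the widest gap between sgGal4 and the sgHS2 libraries of the 9 tested members. Its level was 91.6 and 106 TPM in sgGal4, 47.4 and 47.6 TPM in K, 49.2 and 50.3 TPM in L, 51.2 and 46.0 TPM in LK and 32.6 and 27.9 TPM in KL. Both sgGal4 libraries exceed all 8 sgHS2 libraries, the lower by 1.79-fold over the highest of the 8, and both KL libraries lie below the other 6. Means were 99.1 ± 10.5 TPM in sgGal4, 47.5 ± 0.148 TPM in K, 49.8 ± 0.820 TPM in L, 48.6 ± 3.67 TPM in LK and 30.3 ± 3.27 TPM in KL (SD, n = 2 each). The ratio to the sgGal4 mean was 0.480 in K, 0.502 in L, 0.491 in LK and 0.305 in KL. In order of level L, LK and K follow sgGal4, and KL comes last. LK overlaps with its neighbours L and K, while K lies below L without overlap, by a log2 change of -0.07 that was not called.

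The log2 change of EGR1 against sgGal4 was -1.04 in K, -0.98 in L, -1.01 in LK and -1.68 in KL (SE 0.193), with adjusted p of 0.0173, 0.0294, 0.0170 and 0.000462. Over all 8 sgHS2 libraries it was -1.18 (95% interval -1.50 to -0.85, adjusted p = 0.000916). The 4 group comparisons share the same 2 sgGal4 libraries and are not independent of each other. Without sgGal4 replicate 1 the change over all sgHS2 libraries was -1.28 and without sgGal4 replicate 2 it was -1.07, and this call and that in KL stood with each library left out in turn. The call in K ended without sgGal4 replicate 1 (adjusted p = 0.0512), sgGal4 replicate 2 (0.0556), K replicate 1 (0.0883) or K replicate 2 (0.109). The call in LK ended without sgGal4 replicate 2 (0.0671), LK replicate 1 (0.104) or LK replicate 2 (0.212). For EGR1 in L it ended without sgGal4 replicate 1 (0.0636), sgGal4 replicate 2 (0.0990), L replicate 1 (0.158), L replicate 2 (0.194), LK replicate 1 (0.0591) or LK replicate 2 (0.0578). All 3 calls also ended without a trend (0.108 in K, 0.130 in L, 0.121 in LK) and with only the groups compared (0.0786, 0.106 and 0.0709), and that in L with a replicate block (0.0501).

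**Figure D2:**
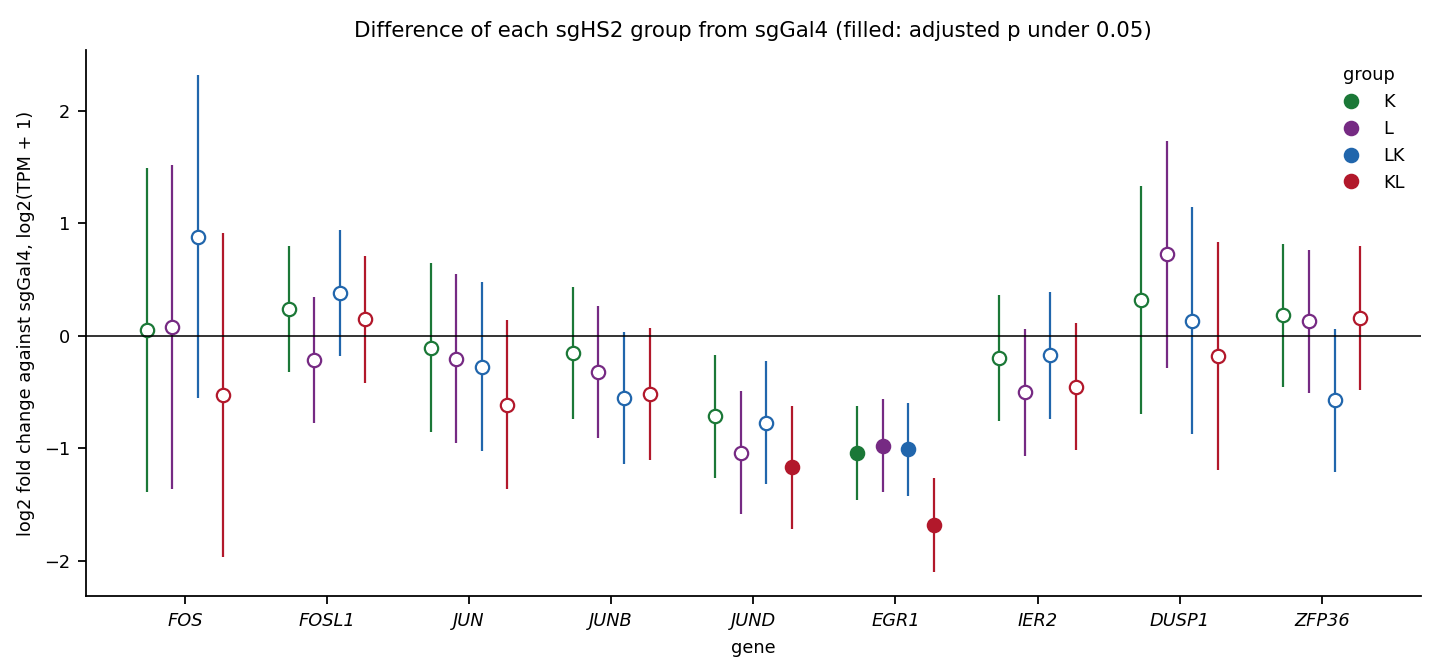
Log2 change of log2(TPM + 1) against sgGal4 for the 9 tested members in K, L, LK and KL (points, 95% intervals as bars, filled where the limma adjusted p is under 0.05). EGR1 is filled in all 4 groups, from -0.98 to -1.68, JUND only in KL at -1.17, and the interval of FOS in LK runs from -0.56 to 2.32.

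IER2, a nuclear protein of the response, ran from 18.2 to 38.0 TPM and both extremes are single libraries, L replicate 2 and sgGal4 replicate 2. Its changes of -0.20, -0.50, -0.17 and -0.45 in K, L, LK and KL were not called. In K the change was 0.08 and in LK 0.10 without sgGal4 replicate 2.

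The feedback members DUSP1 and ZFP36 showed no shared direction. DUSP1, which dephosphorylates MAP kinases, was at 1.68 and 4.79 TPM in sgGal4 and between 1.48 and 6.07 TPM in the sgHS2 libraries, a range that contains both control values. Its changes were 0.32 in K, 0.72 in L, 0.13 in LK and -0.18 in KL (SE 0.471 in each group), and none was called. The change of DUSP1 over all sgHS2 libraries was 0.25, and it ran from -0.31 without sgGal4 replicate 1 to 0.80 without sgGal4 replicate 2. ZFP36, which binds AU-rich elements and speeds the decay of early response mRNAs, was lowest in LK, at 18.6 and 15.9 TPM, against 24.3 and 27.9 TPM in sgGal4 and 21.7 to 37.6 TPM in the other sgHS2 libraries. The 2 LK libraries lie below the other 8, yet the change of -0.57 was not called. Against the other sgHS2 groups ZFP36 in LK changed by -0.75 (K), -0.70 (L) and -0.73 (KL), with adjusted p of 0.887, 0.572 and 0.418.

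Calls at a limma adjusted p under 0.05 over all 10127 genes came to 1 of 9 members in K (EGR1), where 1.62% of all genes were called, 1 in L against 0.869%, 1 in LK against 2.00%, 2 in KL (EGR1 and JUND) against 1.36% and 2 over all sgHS2 libraries against 3.26%. All of these calls were lower than sgGal4. The test for any difference among the 5 groups called EGR1 alone (adjusted p = 0.0046), against 1.82% of all genes, and JUND had 0.113. Without a trend EGR1 had 0.072 and was not called, and JUND was called with size factors (just under 0.05), with the mitochondrial genes removed (0.0429) or with correction for GC content and length (0.0143). Only EGR1 and JUND had an unadjusted p under 0.05 in any comparison with sgGal4, 2 of 9 in each, beside 15.6% of all genes in K, 12.8% in L, 14.2% in LK, 14.7% in KL and 17.1% over all sgHS2 libraries. These counts are near the background. The median change of the 9 was -0.11 in K, -0.22 in L, -0.28 in LK and -0.52 in KL, beside 0.06, 0.00, 0.03 and 0.05 over all genes, and 5, 6, 6 and 7 of the 9 were below 0.

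Between the sgHS2 groups limma called 0 of 9 members in each of the 6 pairs. The share of all genes called was 0.0395% for K against L, 0.385% for LK against KL, 0.00987% for LK against K, 0.118% for LK against L, 0.168% for KL against K and 0.276% for KL against L. At an unadjusted p under 0.05 the counts were 0, 2, 1, 2, 1 and 1 of 9 members in that order, beside 8.34%, 9.84%, 5.18%, 8.15%, 9.97% and 9.60% of all genes. EGR1 was lower in KL by a log2 change of -0.64 against K (95% interval -1.05 to -0.22, adjusted p = 0.271) and -0.70 against L (-1.12 to -0.29, 0.199), and it was 0.67 higher in LK than in KL (0.25 to 1.08, 0.220). Each interval lies off 0, but no difference passed the adjustment over all genes. FOSL1 was 0.59 higher in LK than in L (0.03 to 1.16, 0.582), and FOS was 1.41 higher in LK than in KL (-0.03 to 2.84, 0.519). ZFP36, lower in LK than in K, L and KL by the changes given above, is also in the unadjusted count of each of these pairs. Between KL and K all 9 tested members were lower in KL, with a median of -0.45 beside -0.02 over all genes, and none was called. For FOS, FOSL1 and ZFP36 that sign rests on a single K library. K replicate 2 had 0.54 TPM of FOS, against 0.52 and 1.95 TPM in KL. It had 28.74 TPM of FOSL1, against 34.71 and 34.05 TPM in KL. K replicate 1 had 23.37 TPM of ZFP36, against 29.75 and 28.59 TPM in KL.

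Between replicates the members range from among the steadiest genes to among the least steady. The residual SD within groups, on the log2 scale, was 0.919 for FOS, above 98.6% of the 10127 genes, and 0.503 for DUSP1, above 82.2%. Genes at their level of 1 to 10 TPM vary more, with a median of 0.424 and a 90th percentile of 0.735, so that DUSP1 lies near its peers and FOS above them. At the other end stood EGR1 with 0.108, above only 3.46% of genes, although the range of its 5 group means, 1.68, exceeds that of 96.5%. FOS has a range of group means of 1.41, above 92.9% of genes, beside replicates that differ by up to 2.08 in K, and JUND a range of 1.17 with a residual SD of 0.307. The other 5 members had a residual SD between 0.216 (JUN) and 0.331 (ZFP36), around the median of 0.311 over all genes. Over the 9 members the median was 0.274.

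**Figure D3:**
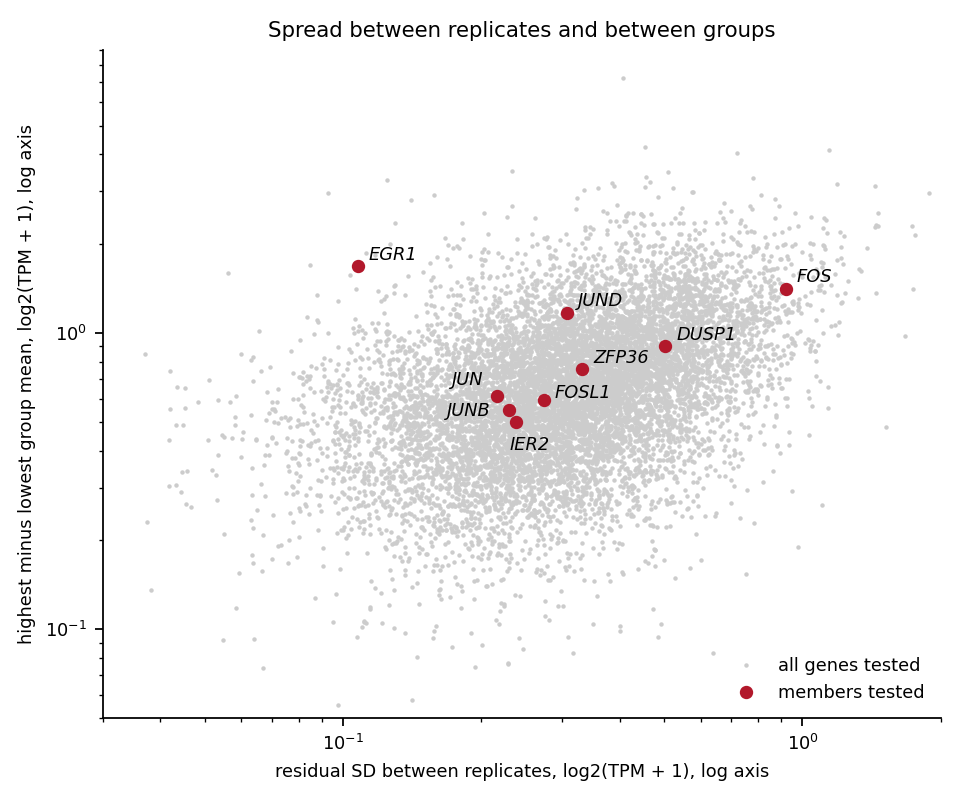
Residual SD within groups against the range of the 5 group means, both on log2(TPM + 1) with log axes, for the 10127 tested genes (grey) and 9 members (red). EGR1 pairs a range of 1.68 with a residual SD of 0.108, and FOS a range of 1.41 with a residual SD of 0.919.

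The 2 sgGal4 libraries differ as a pair. All 9 tested members were higher in sgGal4 replicate 2 than in replicate 1, by a median of -0.24 for replicate 1 minus replicate 2, close to the -0.27 over all genes. The share of listed TPM in 13 mitochondrial genes was 53.6% in sgGal4 replicate 1, the highest of the 10 libraries, and 43.7% in sgGal4 replicate 2, inside the 39.9% to 46.6% of the sgHS2 libraries. In the sgHS2 groups the members split 6 to 3, 4 to 5, 6 to 3 and 6 to 3 between the replicates of K, L, LK and KL. The 10 members summed to 276 and 373 TPM in sgGal4 and to between 183 and 249.9 TPM in the sgHS2 libraries, and after rescaling to the genes outside the mitochondrial set to 705 and 814 against 405 to 516. Before that rescaling the gap lies in EGR1 and JUND: the other 8 members summed to 112 and 144 TPM in sgGal4 and to between 112.5 and 143 TPM in the sgHS2 libraries. After rescaling the other 8 members were not summed apart. Removing the mitochondrial genes moved the median change of all genes by up to 0.114. The change over all sgHS2 libraries was then -1.28 for EGR1 (limma adjusted p = 0.00031) and -1.02 for JUND (0.00747). Over the alternatives other than leaving out a library, the limma adjusted p ran from 0.000301 to 0.0175 for EGR1. For JUND it ran from 0.0021 to 0.131.

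The wider immediate early response was read from 45 other such genes, of which 42 are listed and 28 were tested. ATF3, a partner of JUN that is also induced by stress, was at 14.7 and 25.7 TPM in sgGal4 and between 3.95 and 7.88 TPM in the sgHS2 libraries, with no overlap. It was called lower in K (-1.94), LK (-1.88) and KL (-1.80), not in L (-1.28, adjusted p = 0.130), and over all sgHS2 libraries (-1.73, adjusted p = 0.00436), where the call ended without sgGal4 replicate 2 (0.082). By group, each ATF3 call likewise ended without sgGal4 replicate 2 (0.0814 in K, 0.102 in LK, 0.136 in KL), and without either library of the group itself (0.0842 and 0.116 in K, 0.083 and 0.202 in LK, 0.0844 and 0.17 in KL). Other alternatives kept the ATF3 call in 7 of 9 in K, 6 of 9 in LK, 7 of 9 in KL and 12 of 12 over all sgHS2 libraries. KLF6, at 10.8 and 22.4 TPM in sgGal4 and 4.64 to 8.80 TPM elsewhere, was called over all sgHS2 libraries (-1.25, adjusted p = 0.0391), a call that stood in only 1 of 10 fits with a library left out, the one without sgGal4 replicate 1 (up to 0.364, without sgGal4 replicate 2), and in 7 of 12 other alternatives (up to 0.11). No gene of the 28 was called higher, and in L limma called 0. At an unadjusted p under 0.05 were 5 of 28 in K, 5 in L, 6 in LK, 10 in KL and 8 over all sgHS2 libraries, beside 15.6%, 12.8%, 14.2%, 14.7% and 17.1% of all genes. Their median change was -0.28 in K, -0.37 in L, -0.30 in LK and -0.48 in KL, of the same sign as the medians of the 9 members. MYC, the most abundant at a mean of 223 TPM, was not called.

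**Figure D4:**
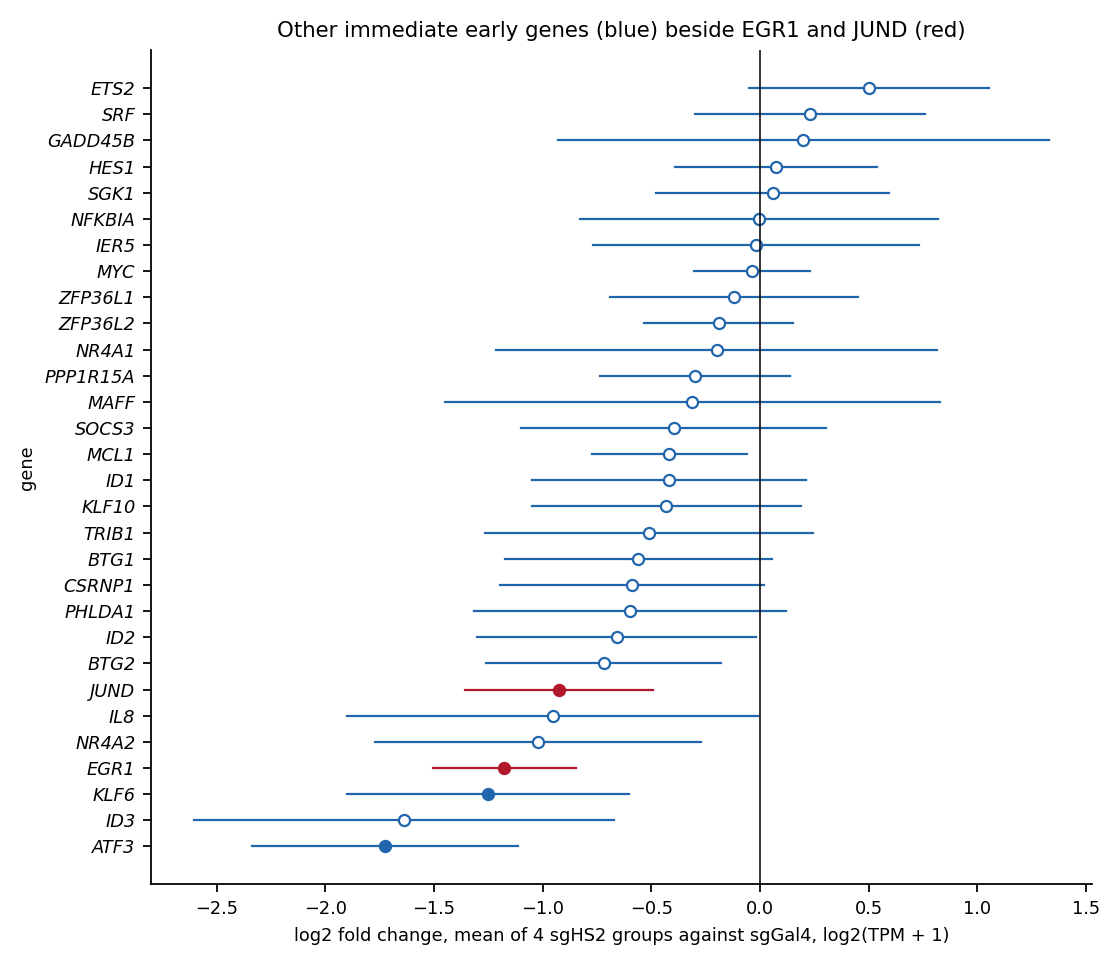
Log2 change over all sgHS2 libraries against sgGal4 for the 28 other immediate early genes tested, with EGR1 and JUND (points, 95% intervals as bars, filled where the limma adjusted p is under 0.05). ATF3 at -1.73 and KLF6 at -1.25 are filled, as are EGR1 at -1.18 and JUND at -0.92.

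The genes upstream and downstream of EGR1 and FOS were read from 4 lists. Of 25 tested genes of the ERK and SRF pathway, from receptors to SRF, limma called 0 in each comparison with sgGal4, with 3, 2, 2, 2 and 3 at an unadjusted p under 0.05 in K, L, LK, KL and over all sgHS2 libraries, where the share of all genes was 15.6%, 12.8%, 14.2%, 14.7% and 17.1%. Single genes went both ways: ELK1, a ternary complex factor, was at 77.1 and 85.6 TPM in sgGal4 and 43.2 to 68.5 TPM in the sgHS2 libraries (log2 change -0.56, adjusted p = 0.0617 over all of them), and MAP2K2, a kinase of ERK, was at 26.9 and 45.7 TPM against 46.5 to 60.9 TPM (0.58, adjusted p = 0.127). Neither was called, and both are named after their values were seen. Of 10 feedback genes of that pathway, among them DUSP, SPRY and SPRED relatives of DUSP1 in role, 0 were called and 3, 3, 1, 2 and 2 had an unadjusted p under 0.05. Of 10 other AP-1 partners ATF3 was the only one called, with 0 called by limma in L, and 1, 2, 4, 1 and 2 had an unadjusted p under 0.05. Of 8 genes of AU-rich mRNA decay, the process ZFP36 serves, limma called 0, with 2, 1, 1, 0 and 1 at an unadjusted p under 0.05.

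Genes of cell stress were read beside EGR1 and JUND. DDIT4 was at 146 and 195 TPM in sgGal4 and between 13.4 and 49.9 TPM in the sgHS2 libraries, a change of -2.78 in K, -1.92 in L, -3.51 in LK, -1.98 in KL and -2.55 over all of them (adjusted p = 6.56e-06 for the last). Of 13 tested genes of nutrient, oxygen and integrated stress, 8 were called lower over all sgHS2 libraries and 0 higher, beside 3.26% of all genes called, with 11 at an unadjusted p under 0.05, beside 17.1% of all genes. Of these 8, the calls of DDIT4, CHAC1, GDF15, ASNS and VEGFA stood with each library left out in turn, while those of CDKN1A (0.0666 and 0.0724), DDIT3 (0.107 and 0.12) and SESN2 (0.113 and 0.212) ended without sgGal4 replicate 1 or 2, and SESN2 also without L replicate 1 (0.0512), LK replicate 1 (0.057) or KL replicate 2 (0.0518). Over the other alternatives the SESN2 call held in 10 of 12 (adjusted p up to 0.0794). Of 11 heat shock genes 2 were called over all sgHS2 libraries, both higher, and 4 had an unadjusted p under 0.05, against the same shares of all genes. HSPE1 was at 252 and 247 TPM in sgGal4 against 361 to 471 TPM, a change of 0.79 that stood with each library left out and was not called without a trend (0.0795). The change of 0.44 in HSPA8 was called in 7 of 13 alternatives (adjusted p up to 0.299) and not without sgGal4 replicate 1 (0.375), K replicate 1 (0.0747), L replicate 1 (0.0774) or 2 (0.0633), LK replicate 1 (0.089) or 2 (0.078), or KL replicate 1 (0.0775) or 2 (0.069). The part of these stress genes in the levels of EGR1 and JUND was not tested, and the guide, the repressor and the state of the 2 control libraries at harvest cannot be told apart in sgGal4 against sgHS2.

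Among 7870 genes that average 5 TPM or more, those most like EGR1 across the 10 libraries by Pearson's r of log2(TPM + 1) were SQLE (0.965), PRDM9 (0.962), DLX4 (0.952), AIG1 (0.944) and CYP51A1 (0.942), and those most like FOS were TFB1M (0.929), DHX40 (0.912), PGRMC2 (0.905), EBNA1BP2 (0.879) and PPAT (0.864). SQLE shows the pattern of EGR1 at 73.2 and 75.1 TPM in sgGal4 and 17.7 to 33.4 TPM in the sgHS2 libraries. DHX40 shows that of FOS, with its highest values, 22.9 and 26.3 TPM, in K replicate 1 and LK replicate 1, the same libraries in which FOS is highest. Among the members, r over the 10 libraries was 0.859 for EGR1 and JUND, the highest of the 36 pairs, and -0.669 for FOSL1 and ZFP36, the lowest. The libraries fall into groups, so that r mixes differences between groups with those between replicates.

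The reads themselves set a limit for 4 members, which overlap another gene on the opposite strand: FOSB with ERCC1, JUNB with HOOK2, and DUSP1 and IER2 with noncoding genes. How strand was used in counting is not stated, so reads of these pairs cannot be told apart. EGR1, JUND and FOS have no such overlap in the annotation. The depth of the libraries cannot be read from TPM.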

How the data were processed

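The deposited values are TPM made by the authors, who per their processing notes aligned reads to hg19 with STAR 2.5.2b and quantified genes with RSEM. The labels name a NEBNext directional poly(A) kit and the study's methods an Ovation kit from NuGEN. No file gives read counts, so DESeq2, the authors' method, could not be run and the depth of each library is unknown. Genes that average 1 TPM or more across the 10 libraries were tested on log2(TPM + 1) with limma 3.58.1 (R 4.3.3, mean-variance trend, all 5 groups in 1 fit), for each sgHS2 group and for their mean against sgGal4, for any difference among the 5 groups and for the 6 pairs of sgHS2 groups. Adjustment was by Benjamini-Hochberg over all 10127 genes, and called means an adjusted p under 0.05. Tables and figures were made in Python 3.11.15.

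The 10 members were given by name. The lists of other immediate early genes, ERK and SRF pathway, ERK feedback, AP-1 partners, AU-rich decay, heat shock, stress and cell type markers came from general knowledge, and from them were named the genes called and the most abundant gene of a list. Genes most like EGR1 and FOS were the 5 with the highest Pearson's r among genes that average 5 TPM or more. The members and lists were chosen with earlier results of these data known. Other named genes were chosen after their values were seen. Transcript GC content, length and overlaps came from GENCODE v44lift37, and promoters, 250 bases before the start, from the RefSeq table of GRCh38.p14.

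Alternatives were a pseudocount of 0.1, no filter, a filter at a mean of 10 TPM, median-of-ratios size factors, quantile normalization, removal of 13 mitochondrial genes, no trend, a replicate block, a fit restricted to the groups in a comparison, correction for GC content and length, and leaving out each library in turn, where the lone library of a group is assumed to vary like the others. The mean of the sgHS2 groups without each group in turn was added after seeing the data.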

Additional observations from a re-analysis of the deposited data

How the results depend on the processing

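EGR1 kept its direction in every comparison with sgGal4 under every alternative, and its calls in KL (adjusted p 0.000137 to 0.0141) and over all sgHS2 libraries (0.000301 to 0.0175) under each of them. Its calls in K, L and LK held in 8, 7 and 8 of 10 alternatives other than leaving out a library, and JUND kept its call in 7 of 10 in KL and 11 of 13 over all sgHS2 libraries. The members called numbered 0 in K, L and LK, 1 in KL, 1 over all sgHS2 libraries and 0 in the test over 5 groups without a trend, and 0 in K, L and LK and 1 in KL with only the groups compared. They numbered 1 in KL and 1 over all sgHS2 libraries without a filter, and 0 in L with a replicate block, although replicate numbers do not pair (replicate differences of 2 groups had an r of -0.0213 to 0.0229 across genes). JUND was the added member where the count rose to 2, in K, L, LK and the test over 5 groups with correction for GC content and length, in L with a filter at 10 TPM, size factors, quantile normalization or the mitochondrial genes removed, and in the test over 5 groups with size factors or the mitochondrial genes removed. With 1 library left out the counts ran from 0 to 1 in K, L and LK and from 1 to 2 in KL and over all sgHS2 libraries. No pair of sgHS2 groups gave a called member under any alternative, and no other member was called against sgGal4.

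The number of all genes called against sgGal4 in K, L, LK, KL and over all sgHS2 libraries, and in the test over 5 groups, was 14, 22, 15, 75, 99 and 39 without a trend and 51, 37, 61, 83, 185 and 58 without a filter. It was 59, 25, 57 and 66 in the 4 groups with only the groups compared, and 151 and 140 in L with quantile normalization and without mitochondrial genes. With 1 library left out it ran from 9 to 231, 16 to 138, 20 to 209, 49 to 167, 90 to 274 and 69 to 167. Uncalled changes that turned sign were FOS in K (-0.11 with a pseudocount of 0.1, -0.031 without mitochondrial genes, -0.052 with the GC and length correction), FOSL1 in KL (-0.0077) and over all sgHS2 libraries (-0.0084) with that correction, and, with LK left out of the sgHS2 mean, FOS (-0.13) and ZFP36 (0.16). With a library left out, sign changes gave FOS -0.99 to 1.09 in K, -0.50 to 0.66 in L, -1.11 to 0.054 in KL and -0.46 to 0.70 over all sgHS2 libraries, and FOSL1 -0.10 to 0.58, JUN -0.40 to 0.19 and JUNB -0.34 to 0.028 in K. IER2 ran from -0.47 to 0.079 in K and -0.45 to 0.10 in LK, DUSP1 from -0.24 to 0.87 in K, -0.42 to 0.69 in LK, -0.73 to 0.38 in KL and -0.31 to 0.80 over all sgHS2 libraries, and ZFP36 from -0.15 to 0.51 in K, -0.25 to 0.51 in L and -0.12 to 0.069 over all sgHS2 libraries. The cause was not tested. A difference at the level of FOS or DUSP1 is not detectable within these ranges, and depth is unknown.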
